A study of Homo sapiens with 6 samples.

Results

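The genes described here serve protein folding in the endoplasmic reticulum (ER), ER-associated degradation (ERAD) and the unfolded protein response. They are a list of 38 named genes, of which 37 were measured among the 18244 genes tested. A gene belongs to the list by its symbol, and its value is that of its brightest probe set by the mean over 6 arrays, among probe sets annotated with exactly 1 symbol. By role, 17 of the measured genes act in folding, 12 in ERAD, 5 are sensors and regulators, and 3 act in translocation or export. VIMP was found under its current symbol SELENOS, and SEC61G had no probe set with exactly 1 symbol. The arrays are of A549, an established cell line of human lung adenocarcinoma, grown in RPMI-1640 medium with serum. In 3 samples (group KD) the cells carried the lentiviral short hairpin shMRPL35, directed against MRPL35, which encodes a large-subunit protein of mitochondrial ribosomes. In the other 3 (group NC) they carried the lentiviral control hairpin shctrl. The labels give neither the time after transduction nor whether samples of a group were separate cultures, so p-values reflect the spread of these samples alone, and that spread may be technical. The source field of NC replicates 2 and 3 gives other cell line numbers than A549, while their remaining labels give A549.

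Proteins that enter the ER are folded there by chaperones such as BiP (HSPA5) and GRP94 (HSP90B1), by the lectins calnexin and calreticulin, and by disulfide isomerases. Chains that fail to fold are recognised by lectins, moved back through the membrane by the ERAD machinery and extracted by the ATPase VCP for degradation by the proteasome. When unfolded chains build up, the sensors ATF6, IRE1 (ERN1) and PERK start the unfolded protein response. ATF6 is cut to release a transcription factor, IRE1 splices the XBP1 mRNA into the form that encodes an active factor, and PERK slows translation. The factors ATF6 and XBP1 are known to bind the ER stress response element in promoters of chaperone genes and related elements in those of ERAD genes.

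The promoter elements that ATF6 and XBP1 are known to bind are shown for the genes that hold them. The RefSeq promoter table of GRCh38.p14, with 250 bases before to 50 after each gene start, held 34 of the 38 genes. DERL1, DERL3, PDIA3 and SEC24D were not matched. The ER stress response element, CCAAT and CCACG separated by 9 bases, was searched on both strands and was found in 6 of the 34 promoters (17.6%), against 27 of the 35116 promoters in the whole table (0.0769%). It was first described in promoters of this kind, so this share is a description and not independent of how such genes were named. By role it was in 5 of 16 folding genes, 1 of 5 sensors and regulators, 0 of 10 ERAD genes and 0 of 3 translocation genes. The stretches below run 5′ to 3′ on the strand of the gene, with the element in capitals. CALR, CRELD2 and the second HSP90B1 stretch hold it in the opposite orientation.
HSPA5: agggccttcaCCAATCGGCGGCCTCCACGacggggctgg
HSP90B1 first: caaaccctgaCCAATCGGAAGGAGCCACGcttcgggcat
HSP90B1 second: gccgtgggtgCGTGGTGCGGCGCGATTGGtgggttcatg
CALR: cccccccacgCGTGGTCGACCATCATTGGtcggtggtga
CANX: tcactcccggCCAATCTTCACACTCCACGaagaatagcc
CRELD2: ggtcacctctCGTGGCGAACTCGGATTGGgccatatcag
XBP1: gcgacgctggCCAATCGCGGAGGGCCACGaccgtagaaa
In GRCh38.p14 these lie at chr9:125241381-125241419 on the minus strand for HSPA5, and on the plus strand at chr12:103930206-103930244 and chr12:103930311-103930349 for HSP90B1. On the plus strand are also chr19:12938374-12938412 for CALR, chr5:179698768-179698806 for CANX and chr22:49918544-49918582 for CRELD2, while XBP1 lies at chr22:28800593-28800631 on the minus strand. All are upstream of the annotated gene start, with the element from 66 to 48 bases before it in HSPA5 and from 52 to 34 in XBP1.

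A second form, ATTGG and CCACG separated by 1 base, was in 3 of the 34 promoters (8.82%) and in 0.0541% of the whole table. It is shown for the genes HYOU1, SDF2L1 and HERPUD1, with the element in capitals, in the opposite orientation in the first 3 stretches.
HYOU1 first: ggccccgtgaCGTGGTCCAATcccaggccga
HYOU1 second: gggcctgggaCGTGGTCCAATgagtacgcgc
SDF2L1: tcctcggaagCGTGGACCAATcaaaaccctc
HERPUD1: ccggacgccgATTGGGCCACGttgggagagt
They lie at chr11:119057370-119057400 and chr11:119057264-119057294 (minus strand), chr22:21642104-21642134 (plus strand) and chr16:56932015-56932045 (plus strand) of GRCh38.p14. The UPR element TGACGTGG was in 3 of 34 (DNAJC10, HYOU1 and VCP; 8.82%, against 0.729% of the whole table), and in HYOU1 it overlaps the first stretch of the second form. The shared part CCACG, which all 3 elements contain on 1 strand or the other, was in 67.6% of the members and 38.1% of all promoters. Of the 34 promoters 11 held at least 1 of the 3 longer elements and 23 held none, among them those of DNAJB9, DNAJB11, PDIA4, PDIA6, MANF, EDEM1 and SEL1L. A match is a run of letters, and binding was not measured.

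On the arrays the values are log2 probe-set signals, with array medians between 5.49 and 5.55. Pearson's r across probe sets, which are not independent replicates, was 0.996 to 0.997 among KD arrays, 0.993 to 0.997 among NC arrays and 0.975 to 0.979 between a KD and an NC array. The first principal component separated KD from NC, and the second (11.75% of the variance) set NC replicate 2 apart. The hairpin's target MRPL35 read 6.49, 6.44 and 6.56 in KD against 8.16, 8.05 and 8.36 in NC, a change of -1.69 ± 0.096 (log2 KD minus NC ± standard error, n = 3 per group here and for all changes given, limma adjusted p = 3.77e-06). The 5 epithelial markers lay between 5.94 and 13.95 in KD and between 5.69 and 13.45 in NC. Of these 4 rose, KRT8 by 0.44, KRT18 by 0.50, KRT19 by 0.37 and CDH1 by 1.31 (limma adjusted p = 3.96e-05 to 0.00454), and EPCAM changed by 0.21 without passing. The 4 fibroblast, 4 immune and 3 endothelial markers lay between 2.33 and 6.11 in KD and between 2.46 and 5.61 in NC; 1 of these 11, CD14, rose (0.60). The 5 alveolar type II markers lay between 3.01 and 8.88 in KD and between 2.84 and 7.86 in NC. Of these ABCA3 rose by 1.14 (limma adjusted p = 1.54e-05), and SFTPA1, SFTPB, SFTPC and NAPSA did not pass. CDKN2A, known to be deleted in A549, read 4.29 to 4.57 in KD and 4.39 to 4.43 in NC. A bulk array gives RNA of all cells together, so a change in the share of cells in some state and a change in RNA per cell cannot be told apart.

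Genes that fold proteins in the ER were mostly higher in KD, whereas ERAD genes went both ways, and of the 5 sensors and regulators WFS1 rose, XBP1 fell and ATF6, ATF6B and ERN1 did not pass the test. Of the 37 measured genes 13 rose and 4 fell (limma, Benjamini-Hochberg adjusted p under 0.05 over all 18244 genes). Among all genes 33.5% passed, 17.6% upwards and 15.9% downwards. Among the 17 folding genes 10 rose (58.8%) and 1 fell (5.88%), with a median log2 change of 0.37, against -0.018 over all genes. The epithelial markers had a median change of 0.44, and their part in the result was not tested. Among the 12 ERAD genes 2 rose and 2 fell, each 16.7%, which is near the share over all genes, and the median was 0.085. All 3 KD arrays lay above all 3 NC arrays in 11 folding genes and 5 ERAD genes, a pattern that 23.2% of all genes had, and below them in 2 folding and 2 ERAD genes, as 21.5% of all genes were. Changes of the list were modest in size: by the brightest probe set of each gene DNAJB9 had the largest, at 1.96-fold, and 0 reached 2-fold.

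**Figure D1:**
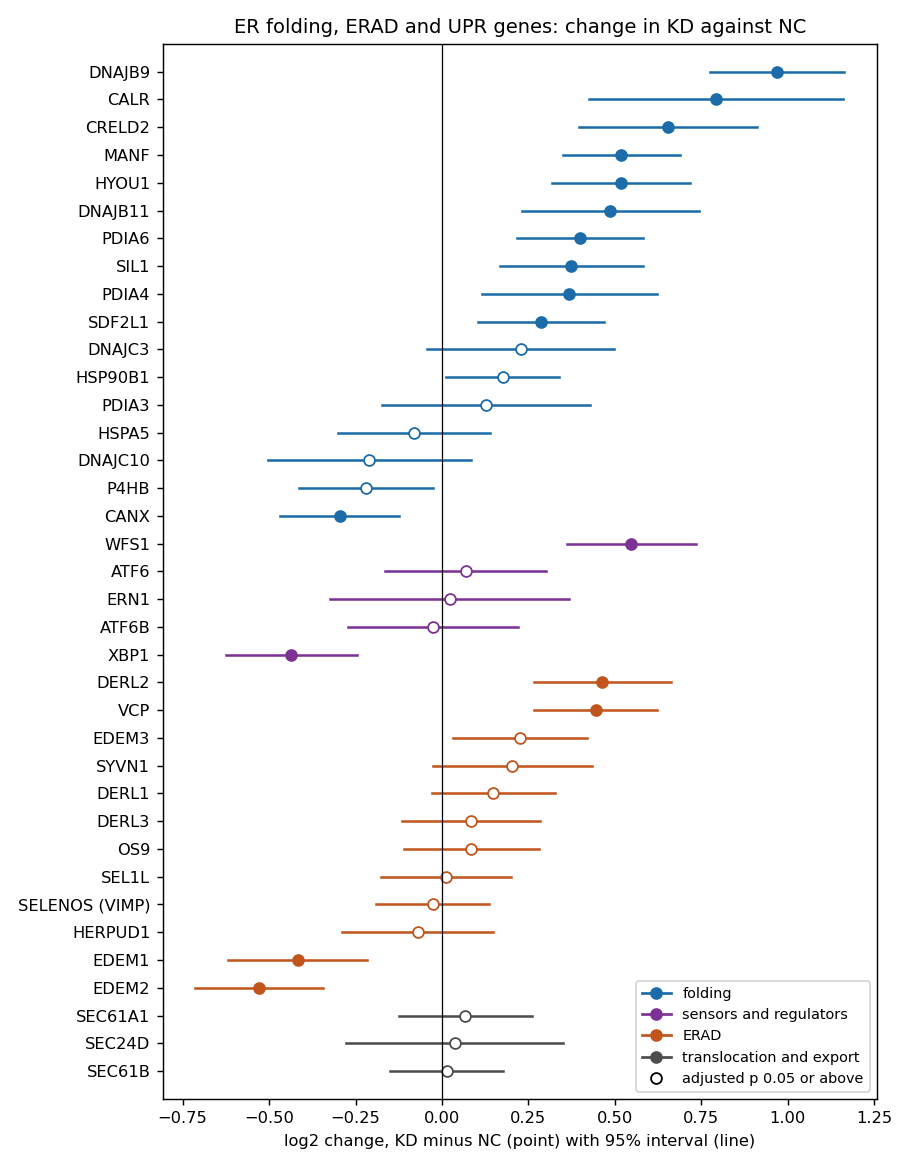
Log2 change, KD minus NC, of the 37 measured genes (point) with its 95% interval (line), grouped and coloured by role; filled points have a limma adjusted p under 0.05. The folding genes run from 0.97 (DNAJB9) to -0.30 (CANX), with 10 of 17 filled to the right of 0, and the ERAD genes have 2 filled points on each side.

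DNAJB9 and the other J-domain co-chaperones, which hand clients to BiP or stimulate its ATPase, differed among themselves. DNAJB9 (ERdj4) read 8.92, 8.78 and 8.79 in KD against 7.97, 7.80 and 7.82 in NC. It rose by 0.97 ± 0.086 on the log2 scale (limma adjusted p = 3.99e-05), with the lowest KD array well above the highest NC array, and a second probe set of it rose by 1.10. All 3 DNAJB9 probe sets have the suffix x or s, and such probe sets can hybridise to several transcripts. DNAJB11 (ERdj3) read 9.78, 9.86 and 9.78 in KD against 9.55, 9.12 and 9.29 in NC and rose by 0.49 ± 0.11 (limma adjusted p = 0.00846). The groups of DNAJB11 did not overlap, and the NC arrays spread more widely than the KD arrays. DNAJC3 (P58IPK) changed by 0.23 and DNAJC10 (ERdj5, a reductase) by -0.21, neither passing (limma adjusted p = 0.196 and 0.277). The dimmest probe set of DNAJC3, with an NC mean of 4.25 near the level of CDKN2A, rose by 0.81. The mean of all DNAJC3 probe sets, that one included, rose by 0.43 (limma adjusted p = 0.00495). DNAJC10 fell by 0.33 with array weights (limma adjusted p = 0.0215) and by 0.36 without NC replicate 2 (limma adjusted p = 0.0100).

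BiP itself did not pass the test. HSPA5 read 11.83, 11.71 and 11.77 in KD against 11.98, 11.68 and 11.90 in NC, with the groups overlapping. Its change was -0.081 with a 95% interval of -0.30 to 0.14 (limma adjusted p = 0.605), and 0 of its 6 probe sets passed, with changes between -0.098 and 0.054. HSP90B1 (GRP94), the ER member of the HSP90 family, read 12.65, 12.60 and 12.63 in KD against 12.43, 12.47 and 12.46 in NC. Every KD array was above every NC array there, but the change of 0.18 did not pass (95% interval 0.011 to 0.34, limma adjusted p = 0.100). It passed with trend and robust fitting (0.00132) and with dim genes left out (0.0423), and 0 of its 7 probe sets passed when all probe sets were tested.

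Nucleotide exchange factors of BiP rose. HYOU1 (GRP170) read 9.05, 9.10 and 9.09 in KD against 8.46, 8.52 and 8.71 in NC and rose by 0.52 ± 0.088, or 1.43-fold (limma adjusted p = 0.00167). Of its 9 probe sets 5 rose and 0 fell. SIL1, the other exchange factor, read 8.01, 8.16 and 8.18 in KD against 7.62, 7.84 and 7.77 in NC. Its change of 0.37 ± 0.091 (limma adjusted p = 0.0112) did not pass without KD replicate 3 (adjusted p = 0.0550). SDF2L1, which works with the J-domain protein ERdj3, read 9.85, 9.83 and 9.84 in KD against 9.51, 9.48 and 9.66 in NC. It rose by 0.29 ± 0.080 (limma adjusted p = 0.0218), the smallest of the 10 rises among folding genes, and did not pass without any 1 of the KD arrays or NC replicate 1 (0.0678 to 0.0765).

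MANF and CRELD2 are secreted ER proteins known as unfolded protein response targets. MANF read 10.83, 10.87 and 10.90 in KD against 10.30, 10.40 and 10.36 in NC, with tight groups far apart, and rose by 0.52 ± 0.075 (limma adjusted p = 0.000643). CRELD2 read 9.61, 9.70 and 9.62 in KD against 9.12, 8.73 and 9.11 in NC. The groups of CRELD2 did not overlap and it rose by 0.65 ± 0.11, or 1.57-fold (limma adjusted p = 0.00189). NC replicate 2 was its lowest array, and without that array the change was 0.53.

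The 2 lectin chaperones of glycoproteins moved in opposite directions. CALR, calreticulin, read 7.14, 7.36 and 7.49 in KD against 6.84, 6.20 and 6.58 in NC and rose by 0.79 ± 0.16, or 1.73-fold (limma adjusted p = 0.00451). Its groups did not overlap, although the NC arrays spread over more than the KD arrays did, and its second probe set rose by 0.39. CANX, the membrane-bound calnexin, read 11.87 on each KD array against 12.13, 12.24 and 12.13 in NC. It fell by 0.30 ± 0.075 (limma adjusted p = 0.0142). Of its 9 probe sets 3 fell and the other changes ran up to 0.28 without passing. The fall did not pass with the mean of its probe sets (-0.10). It did not pass either without probe sets of the suffix x or s, which can hybridise to several transcripts (-0.17). Without KD replicate 2 or 3 it also missed the threshold (limma adjusted p = 0.0551 and 0.0559).

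Disulfide isomerases were likewise mixed. PDIA6 read 11.26, 11.39 and 11.35 in KD against 10.95, 10.86 and 10.99 in NC and rose by 0.40 ± 0.080 (limma adjusted p = 0.00426), as did all 3 of its probe sets. PDIA4 (ERp72) read 11.26, 11.34 and 11.29 in KD against 11.09, 10.69 and 11.01 in NC. Its rise of 0.37 ± 0.11 (limma adjusted p = 0.0311) did not pass without any 1 of the KD arrays (0.0659 to 0.0993), while all 3 of its probe sets rose. PDIA3 (ERp57), the partner of calnexin and calreticulin, changed by 0.13 (limma adjusted p = 0.547), while its dimmer probe set rose by 0.53 and the mean of both by 0.33 (limma adjusted p = 0.0210). P4HB, the founding disulfide isomerase, was lower on every KD array than on any NC array, between 11.48 and 11.60 against 11.64 to 11.84. Its change of -0.22 missed the threshold (limma adjusted p = 0.0844) but passed under 5 alternatives, with adjusted p of 0.00532 to 0.0465.

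**Figure D2:**
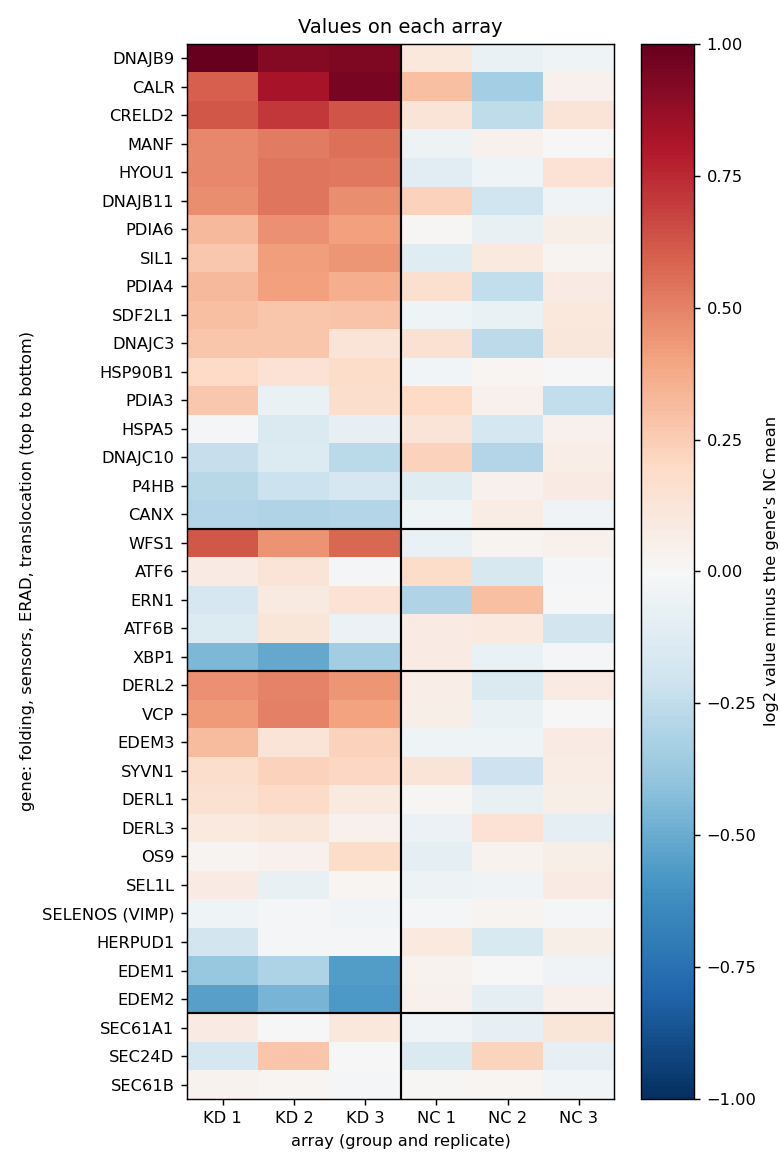
Log2 value on each array minus the mean of the gene over the NC arrays, for the 37 genes (rows, in the order of role and then of change) on the 3 KD and 3 NC arrays (columns). The rows from DNAJB9 to SDF2L1 are red on all KD arrays, and NC replicate 2 is bluer than the other NC arrays in several folding genes such as CALR, CRELD2 and PDIA4.

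Among the sensors and regulators 1 gene rose, WFS1, and 1 fell, XBP1, whose mRNA IRE1 splices. XBP1 read 8.28, 8.21 and 8.38 in KD against 8.81, 8.66 and 8.71 in NC. It fell by 0.44 ± 0.083, 1.35-fold (limma adjusted p = 0.00325), without overlap of the groups, and the call held under all 14 alternatives. It rests on 1 probe set, which gives a single level and does not separate the spliced from the unspliced mRNA. ATF6 read 7.24, 7.29 and 7.15 in KD against 7.34, 6.99 and 7.14 in NC, with a change of 0.068 (95% interval -0.16 to 0.30, limma adjusted p = 0.688). Its paralogue ATF6B read 6.31, 6.57 and 6.39 in KD against 6.53, 6.55 and 6.27 in NC, a change of -0.025 (95% interval -0.27 to 0.22, limma adjusted p = 0.898). ERN1, which encodes IRE1, read 4.13, 4.38 and 4.43 in KD against 3.99, 4.59 and 4.29 in NC, a change of 0.022 (95% interval -0.32 to 0.37, limma adjusted p = 0.937). The groups of these 3 overlapped. The ERN1 probe set was dim, near the level of CDKN2A, so its values may be background. WFS1, an ER membrane protein known to restrain ATF6, read 7.24, 7.07 and 7.20 in KD against 6.56, 6.65 and 6.67 in NC and rose by 0.55 ± 0.082 (limma adjusted p = 0.000828). The only probe set of WFS1 has the suffix s.

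The ERAD genes are given by function, beginning with mannose trimming. EDEM1 and EDEM2 belong to the family that trims mannose from misfolded glycoproteins. EDEM2 read 7.80, 7.88 and 7.77 in KD against 8.39, 8.25 and 8.40 in NC and fell by 0.53 ± 0.081, or 1.44-fold (limma adjusted p = 0.000962). EDEM1 read 7.927, 8.002 and 7.747 in KD against 8.344, 8.312 and 8.272 in NC on its brightest probe set, which fell by 0.42 ± 0.088 (limma adjusted p = 0.00558). Of its 4 dimmer probe sets 3 rose, by 0.30, 0.37 and 0.65, and the mean of the probe sets rose by 0.25, so the direction for EDEM1 depends on the probe set. EDEM3 read 8.21 to 8.40 in KD against 8.04 to 8.17 in NC, a change of 0.23 that missed the threshold (limma adjusted p = 0.0756). It passed with quantile normalization (0.0275), with trend and robust fitting (0.0403) and with dim genes left out (0.0357), and under each of these settings the ERAD rises numbered 3 instead of 2.

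DERL2, a derlin of the retrotranslocation site, rose. It read 9.88, 9.92 and 9.86 in KD against 9.49, 9.28 and 9.51 in NC, a change of 0.46 ± 0.088 (limma adjusted p = 0.00298) on its single probe set. DERL1, the derlin that recruits VCP, changed by 0.15 on its brightest probe set (limma adjusted p = 0.200), while its other 2 probe sets fell by 0.96 and 0.81 (limma adjusted p = 0.000349 and 0.000168 over all probe sets). DERL3 changed by 0.085. VCP, the ATPase that pulls substrates out of the membrane, read 10.93, 11.00 and 10.90 in KD against 10.56, 10.43 and 10.51 in NC and rose by 0.44 ± 0.078 (limma adjusted p = 0.00200). Of its 4 probe sets 3 rose and the dimmest fell by 0.45 (limma adjusted p = 0.00214 over all probe sets).

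**Figure D3:**
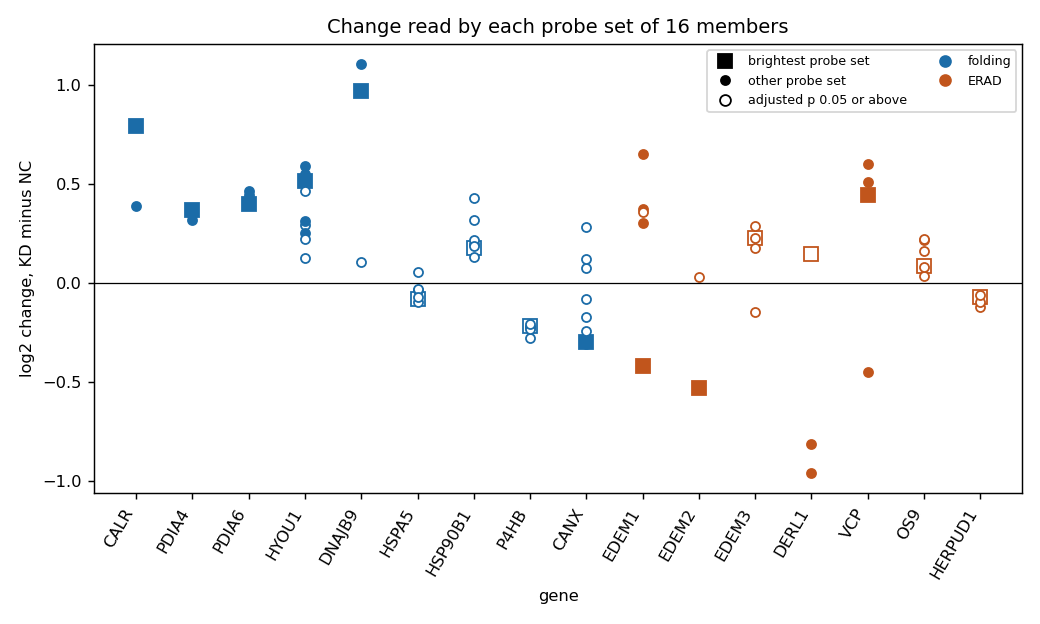
Log2 change, KD minus NC, of each probe set (points) of 16 folding and ERAD genes, with the brightest probe set of each gene as a square; filled symbols have a limma adjusted p under 0.05 over all probe sets with 1 symbol. The probe sets of PDIA4, PDIA6 and HYOU1 lie on 1 side of 0, while those of EDEM1 and VCP have filled symbols on both sides and the brightest one of DERL1 lies apart from its other 2.

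The other ERAD members, around the ubiquitin ligase HRD1, did not pass. SYVN1, the ligase HRD1, changed by 0.20 (95% interval -0.026 to 0.43, limma adjusted p = 0.171), and its scaffold SEL1L by 0.010 (95% interval -0.18 to 0.20). The lectin OS9 changed by 0.085 (95% interval -0.11 to 0.28), HERPUD1, a ubiquitin-like membrane protein of the complex, by -0.070 (95% interval -0.29 to 0.15), and SELENOS, a selenoprotein that binds VCP, by -0.027 (95% interval -0.19 to 0.14). The translocon subunits SEC61A1 and SEC61B changed by 0.067 and 0.014, and SEC24D, a cargo adaptor of COPII vesicles, by 0.036, with the groups overlapping in each.

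Set side by side, the folding genes stood higher on KD arrays than the ERAD genes did. The median over the 17 folding genes, each relative to its NC mean, was 0.30, 0.41 and 0.37 on KD replicates 1 to 3, against 0.11, -0.069 and 0.047 on NC replicates 1 to 3. For the 12 ERAD genes it was 0.093, 0.076 and 0.069 on the KD arrays, against 0.025, -0.057 and 0.058 on the NC arrays. The KD and NC arrays did not overlap for either group. The gap was wide for the folding genes and narrow for the ERAD genes, 0.069 on KD replicate 3 against 0.058 on NC replicate 3. Over all genes the median was -0.046, 0.0082 and -0.0051 on the KD arrays and -0.027, 0.0071 and 0.014 on the NC arrays. The ERAD gap was thus smaller than the spread of arrays over all genes. The median change of the folding genes exceeded that of the ERAD genes by 0.28, a description without a test. NC replicate 2 was the lowest of the 6 arrays for 10 of 17 folding genes (58.8%) and 5 of 12 ERAD genes (41.7%). Both shares were above the 20.4% of all genes for which it was the lowest. Without it the folding median was 0.25 and the excess over ERAD genes 0.15, while 10 folding genes still rose and 2 fell.

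Members that hold the ER stress response element went in different directions. Of the 6 genes with the element, CALR and CRELD2 rose, CANX and XBP1 fell, and HSPA5 and HSP90B1 did not pass. Of the 3 with the second form, HYOU1 and SDF2L1 rose and HERPUD1 did not pass. The UPR element was held by 3 genes, of which HYOU1 and VCP rose and DNAJC10 did not pass. Of the 27 measured genes with a promoter entry but without the ER stress response element 11 rose and 2 fell. Among all genes 17.6% rose and 15.9% fell, and whether an element bears on the change was not tested.

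Other ER genes, from lists outside the 38, gave 19 rises (21.3%) and 28 falls (31.5%) among 89 measured, with a median of -0.076. Over all genes, the shares to set beside these and each list below were 17.6% rising and 15.9% falling. In the list named for the PERK arm 0 of 10 rose and 5 fell (50%), with a median of -0.29. These are RNA levels, and the activity of PERK was not measured. EIF2S1, the translation factor subunit that PERK phosphorylates, read 8.22, 8.19 and 8.04 in KD against 9.68, 9.60 and 9.55 in NC, a fall by 1.46 ± 0.084 (limma adjusted p = 4.10e-06). Only 2 of its 5 probe sets passed, both lower. ATF4, the factor translated when PERK is active, fell by 0.70, its target TRIB3 by 0.84 and ATF3 by 0.39, with 3 of the 7 ATF3 probe sets passing. The sensor gene EIF2AK3 changed by 0.26 without passing (limma adjusted p = 0.255). A mixed list held genes of ATF6 processing, relatives of ATF6 and genes that are neither, namely TMBIM6, TXNIP, BAK1 and RTCB. Of its 10 genes 2 rose and 3 fell. CREB3L2 was lower by 1.12 on 1 of its 7 probe sets, CREB3 changed by -0.40 and TXNIP by -0.33. TMBIM6, an inhibitor of cell death in the ER membrane, was higher by 0.44, with 2 of its 4 probe sets passing.

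In glycan trimming and the calnexin cycle 3 of 10 rose and 1 fell. Glucosidase II (GANAB) rose by 0.36 with all 5 probe sets, the glycanase NGLY1 by 0.29 with 2 of its 5, and the lectin MLEC fell by 0.32. UGGT1, the folding sensor that returns chains to calnexin, rose by 0.24 on its brightest probe set. Of its 3 probe sets 1 rose and 1 fell, with changes from -0.43 to 0.24, so the direction for UGGT1 depends on the probe set. Among 17 other disulfide and proline isomerases 4 rose and 5 fell. ERO1B, an oxidase that recharges disulfide isomerases, read 5.83, 5.84 and 5.83 in KD against 4.65, 4.70 and 4.66 in NC and rose by 1.16 ± 0.071 (limma adjusted p = 5.92e-06), 2.24-fold. Only 2 of its 4 probe sets passed, both higher, with changes from 0.18 to 1.16 over the 4, and the NC values were dim. The prolyl isomerase FKBP2 rose by 0.46, FKBP14 fell by 0.51 and TXNDC12 by 0.41.

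Among 16 other ERAD genes 3 rose and 4 fell. The ubiquitin-conjugating enzyme UBE2J1, which serves HRD1, read 8.19, 8.26 and 8.20 in KD against 7.62, 7.43 and 7.57 in NC and rose by 0.68 ± 0.082 (limma adjusted p = 0.000231) with all 4 probe sets. AUP1, which recruits another conjugating enzyme to lipid droplets and the ER, fell by 0.96 on 1 of its 3 probe sets, signal peptide peptidase HM13 by 0.66 and ERLIN1 by 0.60. Among 15 other translocation genes 4 rose and 5 fell, with TRAM1, a partner of the translocon, higher by 0.77 and SSR4, of the translocon-associated protein complex, by 0.49. SSR1 of the same complex was lower by 1.16 and SRP72, of the signal recognition particle, by 0.51. Of the 8 probe sets of SSR1 6 fell and 1 rose. Among 11 COPII coat genes 3 rose and 5 fell, with SEC24A (-1.29), PREB (-1.002) and SEC13 (-0.51) lower and SEC23B (0.49) higher. The adjusted p of the genes named from these lists outside the 38 as rising or falling lay between 4.10e-06 (EIF2S1) and 0.0335 (UGGT1), by limma.

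**Figure D4:**
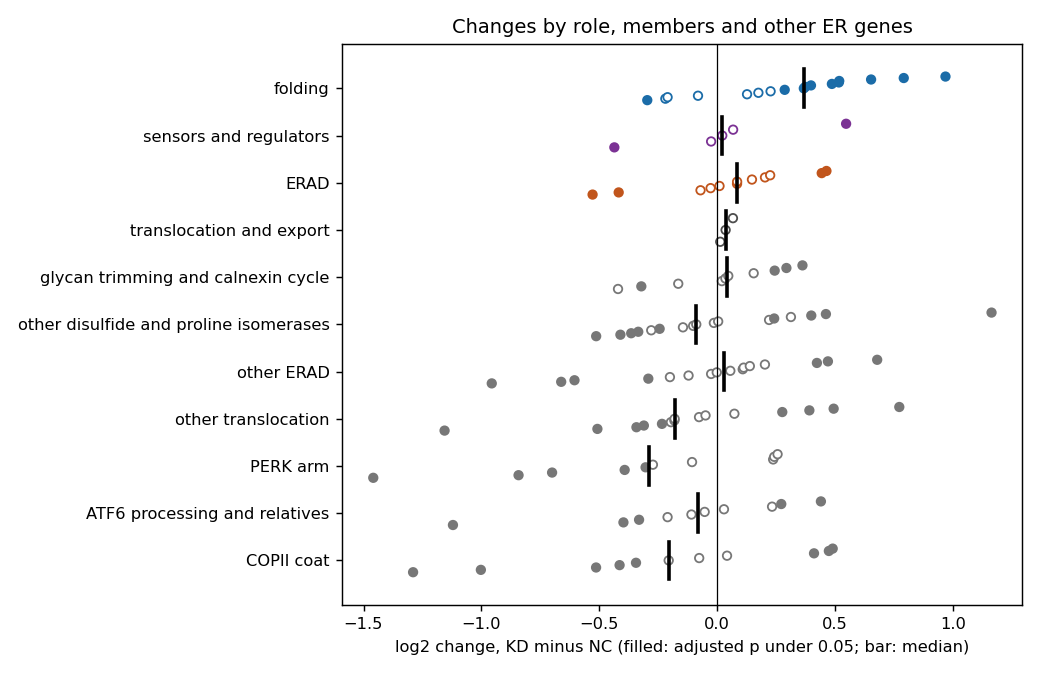
Log2 change, KD minus NC, of each gene (points) by list, for the 4 roles of the 38-gene list (coloured, top) and the 7 lists of other ER genes (grey); filled points have a limma adjusted p under 0.05 and the black bar is the median of the list. The median of the folding genes is 0.37 and that of the PERK arm -0.29. The list of ATF6 processing and relatives also holds TMBIM6, TXNIP, BAK1 and RTCB.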

How the data were processed

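The deposited table of the authors holds log2 probe-set values for 49395 probe sets on 6 Affymetrix arrays. The sources used here do not give the summarisation and normalization method. The log base was inferred from the values, which reach 14.3. Background per probe set is unknown, since no scanner file was used. By the platform annotation 45278 probe sets had 1 symbol, 1333 several and 2682 none, and 102 were controls, which were left out. The brightest probe set stood for each of 18244 genes, 11825 of which had several. Two-sided tests used lmFit and eBayes of limma 3.58.1 (R 4.3.3; group as the only term, 4 residual and 4.67 prior degrees of freedom), with p-values adjusted by Benjamini-Hochberg over all genes and a threshold of 0.05. The steps were tested on simulated data, where 45 of 67 genes with a log2 change of 0.5 passed in the right direction. All 67 with a change of 1 did, and 10 of 18044 unchanged genes passed. The simulation changed a far smaller share of genes than passed in these data, so it does not match their setting.

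The genes, roles, further lists and motifs were chosen with earlier results of these data known. Values on each array were given for the sensors, the genes that passed, HSPA5 and HSP90B1, and up to 4 genes of each further list were named by the size of their change among those that passed. EIF2AK3, CDKN2A and the cell type markers were named outside this rule. Promoters came from RefSeq (GRCh38.p14). Alternatives were quantile normalization, median centring, array weights, trend and robust fitting, a replicate block, the mean of probe sets, omission of x and s probe sets, omission of dim genes (mean level under the 40th percentile) and omission of each array.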

Additional observations from a re-analysis of the deposited data

How the results depend on the processing

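The number of arrays limits precision, background was not measured, and 13 of 37 genes rest on probe sets with the suffix x or s. The 13 rises and 4 falls became 16 and 4 with the mean of probe sets, 12 and 3 without x and s probe sets, and 10 to 13 and 3 to 5 without 1 array. KD and NC replicates with the same number did not deviate together in every pair (r = 0.25, 0.26 and -0.096), and with the replicate number as a block the counts were again 13 and 4. The fall among folding genes numbered 2 with quantile normalization, trend and robust fitting, array weights or dim genes left out, 0 without x and s probe sets, and 0 to 2 without 1 array. The folding median was 0.28 with array weights and 0.25 to 0.39 without 1 array, and its excess over ERAD genes 0.16 and 0.15 to 0.30. Rises among other ER genes numbered 11 without KD replicate 2, within 11 to 18 without 1 array. Directions that turned were EDEM1 (0.25) and DERL1 (-0.54) with the mean of probe sets, both passing there, and, without passing in either setting, SEL1L (-0.045) and SEC24D (-0.18) with the mean of probe sets, HSPA5 without x and s probe sets (0.054), ATF6 with array weights (-0.017) and SEC61B with quantile normalization (-0.0089). Without 1 array ERN1 ranged from -0.13 to 0.17, ATF6 from -0.014 to 0.16, ATF6B from -0.12 to 0.032, SEL1L from -0.027 to 0.053, SEC61B from -0.0013 to 0.028 and SEC24D from -0.085 to 0.15. The cause of these changes of direction was not tested. Of the 17 genes that passed, CALR, PDIA6, DNAJB9, DNAJB11, HYOU1, CRELD2, MANF, XBP1, WFS1, EDEM2, DERL2 and VCP passed under every alternative run for them. DNAJB9 and WFS1 could not be tested without x and s probe sets, since they have no others, so 13 alternatives were run for each instead of 14. The alternative pseudocount, planned for linear values only, was not run because the values are on a log scale.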
